A study of Mus musculus with 8 samples.

Results

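The potassium channel genes were taken as every gene whose platform annotation symbol begins with Kcn, which covers the pore-forming and accessory subunits of potassium channels. There were 84 such genes among the 18193 with a value, 81 of them protein-coding and 3 non-coding RNAs named after a channel locus. They were measured with single-channel oligonucleotide arrays in the small intestine of 6 to 9 day old BALB/c mice. The groups were isolated ICC-DMP cells (3 arrays), isolated ICC-MY cells (3 arrays) and whole tunica muscularis (2 arrays), which is the gut's muscle layer. ICC are interstitial cells of Cajal. In this field MY denotes the myenteric plexus and DMP the deep muscular plexus, which the labels give as abbreviations only. The labels give no genotype, treatment, sex or number of animals per sample, and the same strain and age range for all 8 samples.

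Potassium channels let potassium leave the cell and so set the resting potential, end each depolarisation and space the next. Kcna to Kcnd, Kcnh and Kcnq encode voltage-gated pores, Kcnf, Kcng, Kcns and Kcnv silent partners of such pores, Kcnj inward rectifiers, Kcnk tandem-pore leak channels, and Kcnm, Kcnn, Kcnt and Kcnu channels gated by intracellular calcium or other ions. Kcnab, Kcne, Kcnip and Kcnmb encode accessory subunits that change gating and surface delivery. In gut muscle, ICC-MY generate the electrical slow wave and ICC-DMP receive input from motor nerves, and potassium currents shape the response of both.

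Values are log2 expression values, 1 per gene and array, where a difference of 1 is a doubling. A gene is represented by its probe set (the group of probes designed to 1 transcript region) with the highest mean over the 8 arrays. A difference passed where limma, fitted over all 18193 genes, gave a Benjamini-Hochberg adjusted p under 0.05, and SE is the standard error from that fit. The spread over probe sets was narrower on the first ICC-MY array and on the first tunica muscularis array (SD 1.98 and 2.06) than on the others (2.22 to 2.31). Kit, the receptor that defines ICC, was higher than in tissue by 3.27 in ICC-DMP and by 3.92 in ICC-MY (adjusted p = 0.00366 and 0.00112 by limma).

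In both ICC classes, markers of several, but not all, other cell types of the muscle coat lay below their tissue level. Averaged over 10 enteric neuron markers, the level was 3.96 to 4.04 on the ICC-DMP arrays, 4.11 to 4.17 on the ICC-MY arrays and 8.26 to 8.56 in tissue, and 9 of the 10 were lower in each class. Macrophage markers averaged 4.62 to 4.67 in ICC-DMP, 4.78 to 4.97 in ICC-MY and 6.85 to 7.41 in tissue (5 of 6 lower in each class), and mesothelium markers 3.64 to 3.76 in ICC-DMP, 3.39 to 3.54 in ICC-MY and 8.79 to 9.16 in tissue (5 of 5 lower in each). Averaged over 8 smooth muscle genes, it was 9.99 to 10.29 in ICC-DMP, 7.24 to 8.06 in ICC-MY and 10.67 to 11.61 in tissue, with 4 genes lower in ICC-DMP and 7 in ICC-MY. Averaged over 6 immediate early genes, which respond quickly to stimuli, it was 10.92 to 11.18 in ICC-DMP, 9.18 to 10.19 in ICC-MY and 5.95 to 5.96 in tissue, and all 6 were higher in each class. Markers of PDGFRA cells and fibroblasts averaged 9.15 to 9.45 in ICC-DMP, 8.39 to 8.97 in ICC-MY and 9.45 to 10.39 in tissue. Of these 6 markers, 1 was lower in ICC-DMP and 4 in ICC-MY. Endothelium markers averaged 3.65 to 3.91 in ICC-DMP, 4.29 to 5.12 in ICC-MY and 5.05 to 5.23 in tissue, with 3 of 6 lower in ICC-DMP and 1 in ICC-MY. Several of these lists moved with the channel genes described below, and the part of these markers in those differences was not tested. In such bulk samples, fewer cells of a type and less RNA per cell cannot be told apart.

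Of the 84 channel genes, 24 passed in at least 1 of the 3 comparisons and 60 in none. In ICC-DMP against tissue, 5 genes were higher (5.95%, beside 3.72% of all genes) and 12 were lower (14.3%, beside 7.32% of all genes). In ICC-MY against tissue, 4 were higher (4.76%, beside 4.05%) and 16 were lower (19.0%, beside 9.78%). Between the classes, 6 were higher in ICC-DMP (7.14%, beside 5.36%) and 2 were lower (2.38%, beside 3.3%). When the replicate number was added as a block, these counts became 11 and 5. The block also raised the calls over all 18193 genes between the classes, from 1577 to 2617. Counted in either direction, 17 genes passed in ICC-DMP (20.2%, beside 11%), 20 in ICC-MY (23.8%, beside 13.8%) and 8 between the classes (9.52%, beside 8.67%). All of these had arrays that did not overlap between the 2 groups compared, as did 34, 39 and 36 of the 84 genes in those comparisons (40.5%, 46.4% and 42.9%, beside 38.5%, 34.2% and 25.6% of all genes). The higher shares stood near those of all genes, and the lower shares against tissue stood above them. The median difference of the 84 genes was -0.12 in ICC-DMP and -0.11 in ICC-MY, against -0.04 and -0.02 for all genes.

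The 2 ICC classes are compared with the same 2 tissue arrays, so the overlap of their lists is in part built in. With that in mind, 3 genes were higher in each class (Kcnh2, Kcnmb2 and the non-coding Kcnq1ot1) and 10 were lower in each (Kcnq3, Kcnip1, Kcnab1, Kcnc2, Kcnd2, Kcnd3, Kcnf1, Kcnk6, Kcnj10 and Kcna6). Kcnq5 was called higher in ICC-DMP and Kcnk3 in ICC-MY, and Kcnmb4 was called in opposite directions. Between the classes directly, by limma, Kcnf1 and Kcnmb2 passed among these 13 genes. The others did not, with ICC-DMP minus ICC-MY differences of 0.17 for Kcnq3 (adjusted p = 0.762), 0.18 for Kcnk6 (0.618), 0.35 for Kcnd2 (0.618), 0.23 for Kcnd3 (0.637), 0.50 for Kcnip1 (0.26), -0.20 for Kcnab1 (0.757), -0.13 for Kcnc2 (0.741), -0.21 for Kcna6 (0.484) and 0.54 for Kcnq1ot1 (0.253). Those of Kcnh2 (0.87, 0.269) and Kcnj10 (0.51, 0.0813) did not pass either, but did with the replicate block.

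**Figure D1:**
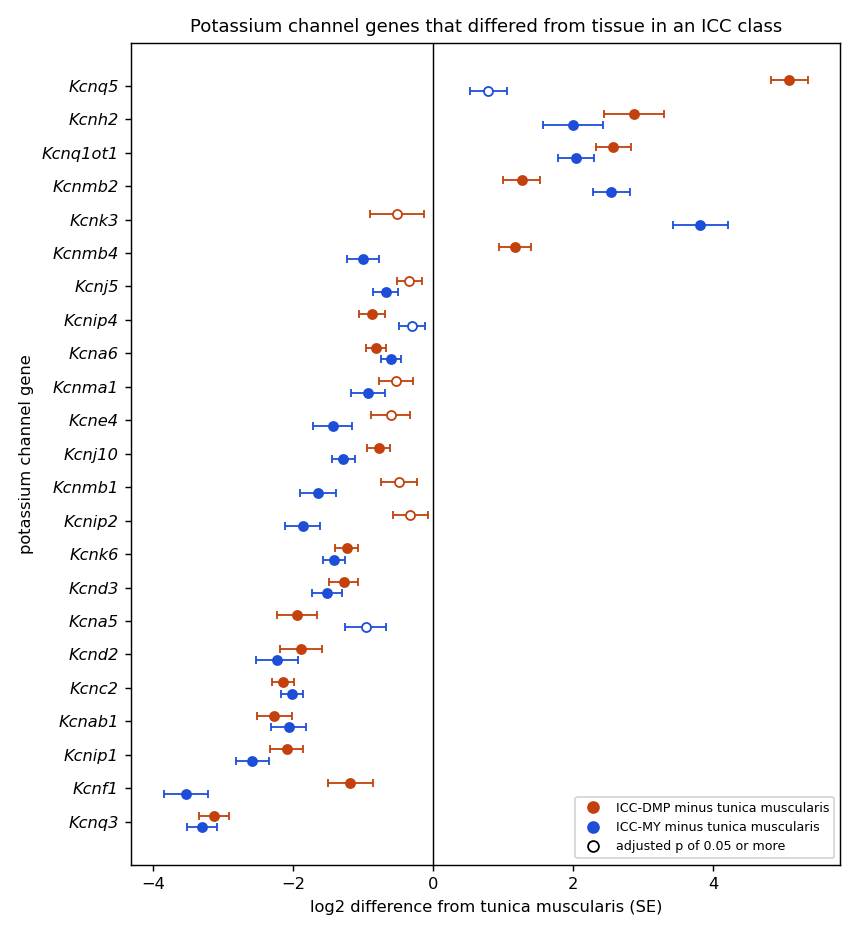
The 23 potassium channel genes that passed in either ICC class against tunica muscularis. Points are log2 differences from tissue, orange for ICC-DMP and blue for ICC-MY, bars are SE, and open points had an adjusted p of 0.05 or more. Kcnq5 lies at 5.09 in ICC-DMP and 0.79 in ICC-MY, Kcnk3 at -0.51 and 3.82, and Kcnq3 below -3 in each.

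Among the Kcnq genes, which encode the M-type channels that open near rest and are closed by muscarinic signalling, Kcnq5 was high in ICC-DMP. It read 9.25, 9.02 and 9.88 on the ICC-DMP arrays, 5.10, 4.85 and 5.30 on the ICC-MY arrays, and 4.14 and 4.45 in tissue. The 3 ICC-DMP arrays stood well apart from all the others. The difference was 5.09 from tissue (SE 0.27, adjusted p = 1.22e-05 by limma) and 4.30 from ICC-MY (SE 0.24, adjusted p = 3.3e-05). The tissue arrays read close to the array medians of 4.18 to 4.30, so no fold is given. Without any single array the difference from tissue stayed between 4.84 and 5.27.

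The probe sets of Kcnq5 disagreed on ICC-MY against tissue. On the probe set used, ICC-MY differed from tissue by 0.79 (SE 0.27, adjusted p = 0.1, and 0.0456 without ICC-DMP replicate 3). On the second by mean level, the arrays read 8.27, 8.16 and 8.10 in ICC-DMP, 4.34, 3.86 and 3.63 in ICC-MY, and 5.87 and 6.28 in tissue. There ICC-MY lay below tissue (-2.13, SE 0.23, adjusted p = 0.000527 in the fit over all 34945 single-gene probe sets) and ICC-DMP above it by 2.10 (SE 0.23, adjusted p = 0.000596). ICC-DMP exceeded ICC-MY on each of the 3 probe sets, by 4.30, 4.23 and 1.54. The order of the ICC classes therefore did not depend on the probe set, whereas the place of tissue between them did.

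Kcnq3, which forms heteromeric M-channels with other Kcnq subunits in neurons, moved the other way. It read 4.10, 3.97 and 4.31 in ICC-DMP, 4.33, 3.82 and 3.71 in ICC-MY, and 7.25 and 7.26 in tissue. The ICC arrays overlapped each other and lay about 3 units below both tissue arrays. The differences from tissue were -3.13 (SE 0.21, adjusted p = 4.12e-05) in ICC-DMP and -3.30 (SE 0.21, adjusted p = 2.82e-05) in ICC-MY by limma. The second, dimmer Kcnq3 probe set did not pass (-0.20 and -0.16). Enteric neuron markers fell in the same samples, as given above. Kcnq1, a repolarising channel of heart and epithelia, did not pass in any comparison, with values of 4.11 to 4.64.

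RefSeq promoter windows (250 bases before to 50 after an annotated start, build GRCm38.p6) were read for Kcnq5, Kcnmb2 and Kcnmb4. The other genes that separated the classes, Kcnmb1 among them, were not read. A window was listed for 64 of the 84 genes, and for 7 of the 8 that passed between the classes. The windows of Kcnq5, which led ICC-DMP, and of Kcnmb2 and Kcnmb4, accessory genes of the same channel that moved in opposite directions between the classes, are shown so that the channel genes can be compared at their starts. Capitals mark GGGCGG, the GC box, on either strand, and 35.7% of the 32851 windows in the table hold it.
Kcnq5, chr1:21962601-21962900, minus strand: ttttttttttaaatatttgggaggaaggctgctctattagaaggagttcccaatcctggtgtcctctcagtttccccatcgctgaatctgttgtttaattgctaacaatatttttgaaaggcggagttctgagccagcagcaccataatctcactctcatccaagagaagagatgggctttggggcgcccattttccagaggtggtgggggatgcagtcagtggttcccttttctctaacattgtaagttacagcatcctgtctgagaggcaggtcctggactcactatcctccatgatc
Kcnq5, chr1:21961893-21962192, minus strand: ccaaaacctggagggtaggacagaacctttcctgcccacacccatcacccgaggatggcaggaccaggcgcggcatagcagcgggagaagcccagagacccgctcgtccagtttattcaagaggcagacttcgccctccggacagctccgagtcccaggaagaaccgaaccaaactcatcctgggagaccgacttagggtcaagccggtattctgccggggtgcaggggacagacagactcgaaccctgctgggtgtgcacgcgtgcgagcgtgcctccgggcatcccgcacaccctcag
Kcnmb2, chr3:31902453-31902752, plus strand: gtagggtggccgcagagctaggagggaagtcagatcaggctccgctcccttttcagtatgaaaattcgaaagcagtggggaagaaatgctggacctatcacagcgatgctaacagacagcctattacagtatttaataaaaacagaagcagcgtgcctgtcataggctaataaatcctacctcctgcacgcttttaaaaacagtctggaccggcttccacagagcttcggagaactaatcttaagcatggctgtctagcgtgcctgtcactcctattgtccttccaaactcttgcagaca
Kcnmb4, chr10:116473474-116473773, minus strand: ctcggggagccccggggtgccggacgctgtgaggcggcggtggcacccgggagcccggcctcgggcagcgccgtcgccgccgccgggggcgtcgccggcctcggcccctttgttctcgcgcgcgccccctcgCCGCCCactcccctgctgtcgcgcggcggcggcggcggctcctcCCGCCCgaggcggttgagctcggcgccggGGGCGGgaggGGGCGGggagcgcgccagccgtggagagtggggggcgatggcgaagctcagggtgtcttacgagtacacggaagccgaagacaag
The Kcnmb4 window held 4 GC boxes and 48 CG dinucleotides, and the Kcnmb2 window 0 and 9. The Kcnq5 windows held 0 GC boxes and 3 and 20 CG dinucleotides, and the median over all windows was 7 CG dinucleotides. TATAAA (13.6% of all windows), TGANTCA (7.81%), CCGGAA (14.9%) and CACGTG (7.15%), each searched on both strands, were in none of these 4 windows.

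Of the 12 Kcnk genes, whose leak channels hold the membrane near the potassium equilibrium, Kcnk3 was high in ICC-MY. Kcnk3 encodes TASK-1, a leak channel closed by external acid. It read 5.56, 5.88 and 5.69 in ICC-DMP, 9.15, 10.43 and 10.53 in ICC-MY, and 6.02 and 6.42 in tissue. The ICC-MY arrays lay apart from all the others, the lowest of them being the narrow-range array. ICC-MY exceeded tissue by 3.82 (SE 0.39, adjusted p = 0.000351 by limma, 14.1-fold). ICC-DMP lay below ICC-MY (-4.33, SE 0.35, adjusted p = 0.000147, a 20.1-fold difference) and did not differ from tissue by the test (-0.51, SE 0.39, adjusted p = 0.564, but -0.71 and 0.0383 without the 2 narrow-range arrays). The other 2 Kcnk3 probe sets were dimmer and gave much smaller differences. On the second, ICC-MY passed against tissue (0.65, adjusted p = 0.0385), but ICC-DMP against ICC-MY did not (-0.58, adjusted p = 0.0552), and on the remaining one neither did (0.54 and -0.65, adjusted p = 0.143 and 0.0772).

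Kcnk6, which encodes the weak leak channel TWIK-2, read 5.73, 5.86 and 5.73 in ICC-DMP, 5.63, 5.70 and 5.45 in ICC-MY, and 6.86 and 7.16 in tissue. Each ICC array lay below each tissue array. The differences from tissue were -1.24 (SE 0.16, adjusted p = 0.00145) in ICC-DMP and -1.42 (SE 0.16, adjusted p = 0.000566) in ICC-MY by limma. The other 10 Kcnk genes did not pass in any comparison, the largest difference being that of Kcnk1 in ICC-MY against tissue (-0.84, adjusted p = 0.172, and -0.94 with adjusted p = 0.0154 with the replicate block). With the block Kcnk1 also differed between the classes (0.76, adjusted p = 0.0245).

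The large-conductance calcium-activated channel, known as BK, differed between the classes in its subunits. Its accessory beta subunits are encoded by Kcnmb1, Kcnmb2 and Kcnmb4, and its pore by Kcnma1. Kcnmb2, whose product makes the channel inactivate, read 7.72, 7.62 and 7.34 in ICC-DMP, 8.53, 9.30 and 8.68 in ICC-MY, and 6.06 and 6.53 in tissue. The 3 groups did not overlap, with ICC-MY highest. It was higher than in tissue by 1.27 (SE 0.26, adjusted p = 0.0174) in ICC-DMP and by 2.54 (SE 0.26, adjusted p = 0.000384) in ICC-MY, and lower in ICC-DMP than in ICC-MY (-1.28, SE 0.24, adjusted p = 0.0112), all by limma. Its second probe set passed against tissue in the same directions (1.45 and 2.47) but not between the classes (-1.02, adjusted p = 0.107).

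Kcnmb4, the beta subunit best known from neurons, which slows activation, went the other way between the classes. It read 6.73, 7.001 and 7.19 in ICC-DMP, 4.46, 4.81 and 5.14 in ICC-MY, and 5.85 and 5.78 in tissue. Tissue lay between the ICC classes without overlap. ICC-DMP exceeded ICC-MY by 2.17 (SE 0.20, adjusted p = 0.000304 by limma, 4.5-fold). Against tissue it was higher by 1.17 in ICC-DMP (SE 0.23, adjusted p = 0.0125) and lower in ICC-MY (-1.01, SE 0.23, adjusted p = 0.0202).

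Several calls of these beta subunits depended on single arrays, while that of Kcnmb4 between the classes and that of Kcnmb2 in ICC-MY did not. Kcnmb4 in ICC-DMP did not pass when ICC-DMP replicate 2 (adjusted p = 0.0508) or tunica muscularis replicate 2 (0.0594) was dropped. In ICC-MY it did not pass when ICC-MY replicate 2 (0.0544) or either tunica muscularis array (0.0838 and 0.0751) was dropped. Kcnmb2 in ICC-DMP did not pass when ICC-DMP replicate 1 (0.074), ICC-DMP replicate 2 (0.0668) or tunica muscularis replicate 1 (0.107) was dropped, nor between the classes when ICC-DMP replicate 3 was (0.0525). The Kcnmb4 difference between the classes stayed between 1.999 and 2.34.

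Kcnmb1, the beta subunit of smooth muscle BK channels, was low in ICC-MY. It read 5.64, 5.14 and 5.50 in ICC-DMP, 4.67, 4.03 and 4.12 in ICC-MY, and 6.16 and 5.68 in tissue. ICC-MY lay below the other groups, and ICC-DMP just below tissue. The difference was -1.64 (SE 0.26, adjusted p = 0.00339) from tissue in ICC-MY, and ICC-DMP exceeded ICC-MY by 1.15 (SE 0.23, adjusted p = 0.0166), by limma. It did not pass between the classes when ICC-DMP replicate 1 (0.0842), ICC-DMP replicate 3 (0.0683), ICC-MY replicate 2 (0.0634) or ICC-MY replicate 3 (0.0657) was dropped. On the second Kcnmb1 probe set neither call held (-0.57 and 0.30, adjusted p = 0.0935 and 0.434). The mean level of the smooth muscle markers was also lowest in ICC-MY.

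For Kcnma1, the BK pore gene, the size of the difference depended on which of its 5 probe sets was read. The probe set used read 5.84, 5.55 and 5.68 in ICC-DMP, 5.55, 4.79 and 5.51 in ICC-MY, and 6.25 and 6.18 in tissue. It was lower in ICC-MY than in tissue (-0.94, SE 0.24, adjusted p = 0.0365 by limma). It did not pass when any ICC-DMP array (0.066, 0.0654 and 0.0649) or either tissue array (0.129 and 0.117) was dropped, and ICC-DMP did not differ from ICC-MY by the test (0.41, adjusted p = 0.397).

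The second Kcnma1 probe set by mean level read 6.08, 6.23 and 6.12 in ICC-DMP, 2.88, 2.46 and 2.37 in ICC-MY, and 6.70 and 7.80 in tissue. There the ICC-MY arrays lay more than 3 units below every other array. The differences were -4.68 (SE 0.30, adjusted p = 4.2e-05) between ICC-MY and tissue and 3.57 (SE 0.27, adjusted p = 0.00015) between ICC-DMP and ICC-MY, in the limma fit over probe sets. The next 2 probe sets passed in the same directions, with 1.74 and 1.04 between ICC-DMP and ICC-MY. With all 5 averaged, ICC-DMP exceeded ICC-MY by 1.53 (adjusted p = 0.000246). All 5 read lower in ICC-MY than in tissue and than in ICC-DMP, and 3 of them passed between the classes.

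**Figure D2:**
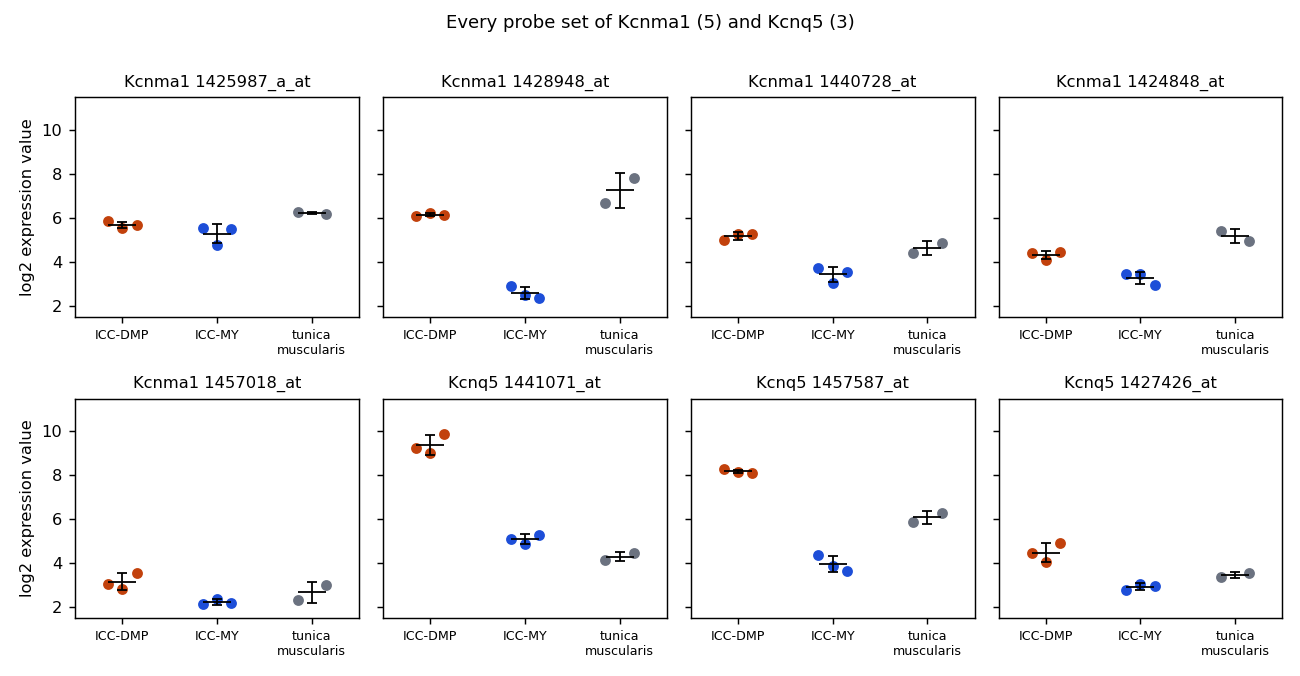
Log2 expression values of every probe set of Kcnma1 and Kcnq5 by group. Points are arrays, horizontal ticks are group means and bars are SD (n = 3, 3 and 2). On the second probe set the ICC-MY arrays of Kcnma1 lie at 2.37 to 2.88, and on each Kcnq5 probe set the ICC-DMP arrays are the highest.

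Among the remaining 7 genes of the calcium-gated and sodium-gated families, Kcnt2 passed between the classes. It encodes a large channel opened by intracellular sodium. It read 7.39, 7.30 and 6.76 in ICC-DMP, 5.88, 5.88 and 5.96 in ICC-MY, and 6.27 and 6.78 in tissue. The classes did not overlap, and tissue lay between their means. ICC-DMP exceeded ICC-MY by 1.24 (SE 0.21, adjusted p = 0.00678 by limma), and neither class passed against tissue (0.63 and -0.62, adjusted p = 0.15 and 0.138). The small-conductance genes Kcnn1, Kcnn2 and Kcnn3 and the intermediate-conductance gene Kcnn4 did not pass. Kcnn3, known as a marker of PDGFRA cells in gut muscle, read 4.59 to 4.63 in ICC-DMP, 4.70 to 4.97 in ICC-MY and 4.83 to 5.30 in tissue. Kcnn2 passed between the classes with the replicate block (0.73, adjusted p = 0.0211).

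**Figure D3:**
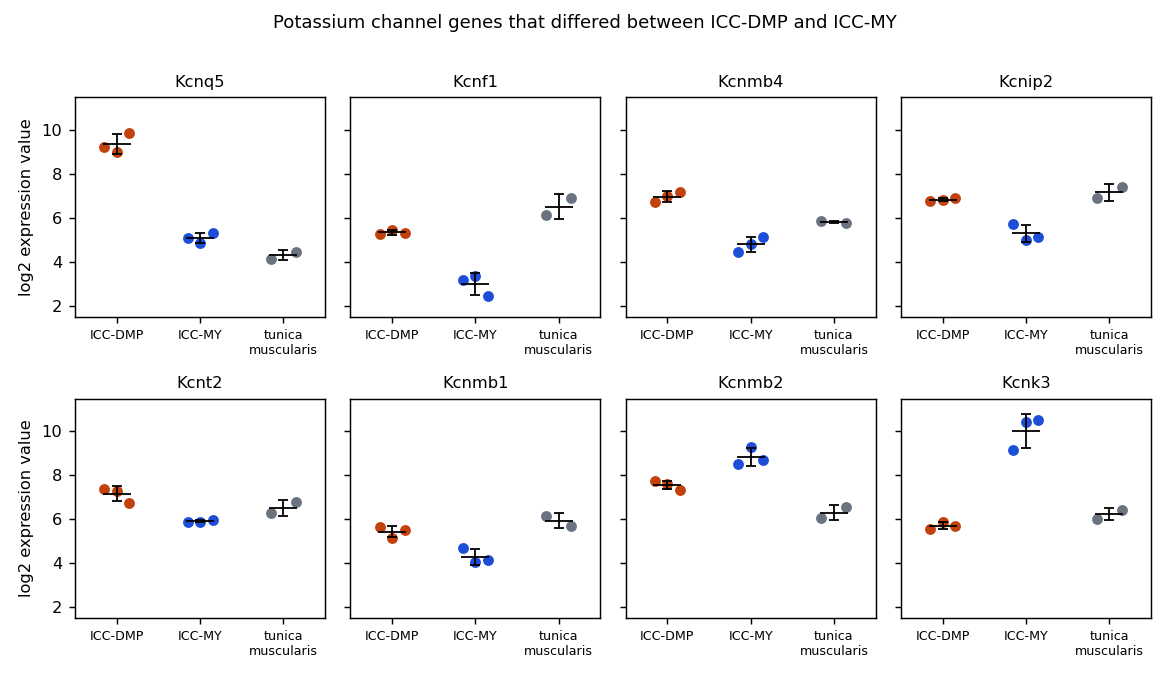
Log2 expression values of the 8 potassium channel genes that passed between ICC-DMP and ICC-MY, ordered by that difference. Points are arrays, horizontal ticks are group means and bars are SD (n = 3, 3 and 2). Kcnq5, Kcnf1, Kcnmb4, Kcnip2, Kcnt2 and Kcnmb1 are higher in ICC-DMP, and Kcnmb2 and Kcnk3 in ICC-MY.

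Of the 6 Kcnh genes, Kcnh2 was higher in each ICC class than in tissue. It encodes the ERG channel, whose current repolarises the heart and, in gut muscle, steadies the membrane between slow waves. It read 10.003, 10.003 and 10.83 in ICC-DMP, 8.70, 9.35 and 10.17 in ICC-MY, and 7.23 and 7.59 in tissue. All ICC arrays exceeded both tissue arrays, and the classes overlapped. The difference was 2.87 (SE 0.42, adjusted p = 0.00311, 7.32-fold) in ICC-DMP and 1.996 (SE 0.42, adjusted p = 0.0157, 3.99-fold) in ICC-MY by limma. The ICC-MY difference did not pass when either tissue array was dropped (0.0834 and 0.0507). Between the classes the difference was 0.87 (adjusted p = 0.269), and it passed with the replicate block (adjusted p = 0.00847).

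Kcnh3, a brain ether-a-go-go-like channel gene, was highest on 2 arrays of different groups. It read 7.81, 7.41 and 7.69 in ICC-DMP, 9.96, 7.03 and 8.10 in ICC-MY, and 9.68 and 6.92 in tissue. Its 2 highest values were those of the narrow-range arrays. It did not pass in any comparison (largest difference -0.73, adjusted p = 0.764). The other 4 Kcnh genes read the same within 0.5 units in every comparison, and none passed.

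The A-type channel opens briefly below threshold and delays firing. Of its 7 measured Kcnd and Kcnip genes, 4 were lower in ICC-DMP and 4 in ICC-MY than in tissue, beside 7.32% and 9.78% of all genes. The Kv4 pore of this channel is encoded by the Kcnd genes, its calcium-sensing KChIP subunits by the Kcnip genes, and its DPP subunits by Dpp6 and Dpp10. Kcnd2 read 4.02, 3.93 and 3.67 in ICC-DMP, 3.42, 3.60 and 3.57 in ICC-MY, and 5.19 and 6.32 in tissue. The tissue arrays lay above every ICC array, although they differed by more than 1 unit between themselves. The differences from tissue were -1.89 (SE 0.30, adjusted p = 0.00462) in ICC-DMP and -2.23 (SE 0.30, adjusted p = 0.00151) in ICC-MY by limma, and a second probe set passed in each class as well (-0.996 and -0.91).

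Kcnd3, the other Kv4 pore gene that passed, read 6.97, 7.01 and 6.98 in ICC-DMP, 6.63, 6.86 and 6.78 in ICC-MY, and 7.91 and 8.63 in tissue. The classes were close together and below tissue. The differences were -1.28 (SE 0.21, adjusted p = 0.00569) and -1.51 (SE 0.21, adjusted p = 0.00184) by limma. Its 3 dimmer probe sets showed no such difference (0.01 and -0.07 on the second), and with all 4 averaged neither class passed (-0.29 and -0.27, adjusted p = 0.108 and 0.126). Kcnd1 did not pass in any comparison.

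Kcnip1 read 4.08, 4.24 and 4.15 in ICC-DMP, 3.84, 3.35 and 3.79 in ICC-MY, and 5.91 and 6.59 in tissue. Each ICC array was below tissue, with differences of -2.09 (SE 0.24, adjusted p = 0.000765) and -2.59 (SE 0.24, adjusted p = 0.000202) by limma. On its second probe set the ICC-DMP difference did not pass (-0.89, adjusted p = 0.082) and the ICC-MY one did (-1.20, adjusted p = 0.0236). Kcnip2 separated the classes. It read 6.78, 6.82 and 6.90 in ICC-DMP, 5.74, 4.99 and 5.15 in ICC-MY, and 6.90 and 7.42 in tissue. ICC-DMP lay near tissue and ICC-MY below both. The difference was -1.87 (SE 0.25, adjusted p = 0.00149) between ICC-MY and tissue, and ICC-DMP exceeded ICC-MY by 1.54 (SE 0.22, adjusted p = 0.00331). The second, dimmer Kcnip2 probe set showed neither (-0.25 and -0.05).

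Kcnip4 was lower in ICC-DMP than in tissue at low values (means 2.45 and 3.32, difference -0.87, SE 0.19, adjusted p = 0.0201 by limma). It did not pass when ICC-DMP replicate 2 (0.08), ICC-DMP replicate 3 (0.0721) or tunica muscularis replicate 1 (0.116) was dropped. On the second Kcnip4 probe set it did not pass either (-0.18, adjusted p = 0.701). With the replicate block it passed between the classes (-0.57, adjusted p = 0.0245). Kcnip3 did not pass.

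Of the DPP partner genes, which carry no Kcn name, Dpp10 was lower in each class and Dpp6 passed in ICC-DMP. Dpp10 read 5.95, 5.77 and 5.85 in ICC-DMP, 4.06, 4.40 and 4.72 in ICC-MY, and 6.81 and 7.99 in tissue. The 3 groups did not overlap. The differences from tissue were -1.54 (SE 0.33, adjusted p = 0.0207) in ICC-DMP and -3.005 (SE 0.33, adjusted p = 0.000549) in ICC-MY, and ICC-DMP exceeded ICC-MY by 1.46 (SE 0.30, adjusted p = 0.0181), all by limma. Dpp6 was lower in ICC-DMP (-1.37, SE 0.35, adjusted p = 0.0435), a call lost when any ICC-DMP array, ICC-MY replicate 2 or 3, or tunica muscularis replicate 1 was dropped (0.067 to 0.134), and on its second probe set (-0.30, 0.664). In ICC-MY the Dpp6 difference was -1.18 (adjusted p = 0.0648, and 0.0494 with the replicate block). Dpp10 in ICC-DMP did not pass when any ICC-DMP array (0.066, 0.0776 and 0.0658) or tunica muscularis replicate 2 (0.0711) was dropped. Between the classes it did not pass when any ICC-DMP array (0.0844, 0.0659 and 0.0654) or ICC-MY replicate 2 (0.0577) was.

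**Figure D4:**
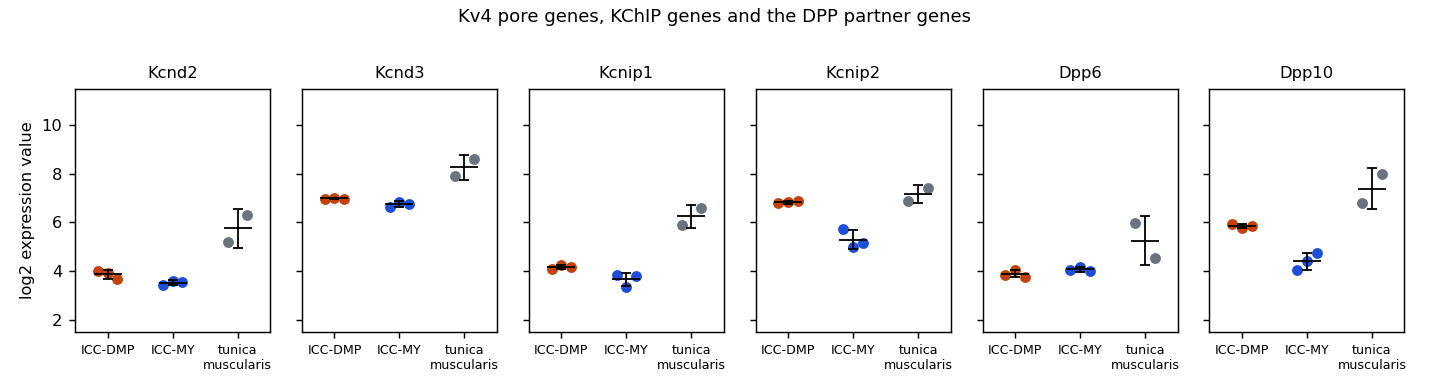
Log2 expression values of the Kv4 pore genes Kcnd2 and Kcnd3, the KChIP genes Kcnip1 and Kcnip2 and the partner genes Dpp6 and Dpp10. Points are arrays, horizontal ticks are group means and bars are SD (n = 3, 3 and 2). Tissue is highest for all 6 genes by mean, and ICC-DMP stands near tissue for Kcnip2.

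Among the Kcna genes, which encode the Shaker delayed rectifiers, 2 of 7 passed. In ICC-DMP 2 were lower than in tissue and in ICC-MY 1, beside 7.32% and 9.78% of all genes. Kcna5, a delayed rectifier of vascular and gut muscle, read 4.30, 4.34 and 4.94 in ICC-DMP, 5.57, 5.77 and 5.18 in ICC-MY, and 6.13 and 6.81 in tissue. The 3 groups did not overlap. It was lower in ICC-DMP than in tissue (-1.94, SE 0.29, adjusted p = 0.00321 by limma). In ICC-MY the difference was -0.96 (SE 0.29, adjusted p = 0.0653), and that of ICC-DMP from ICC-MY was -0.98 (SE 0.26, adjusted p = 0.0574). With the replicate block each of these passed (adjusted p = 0.0405 and 0.0271).

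Kcna6 was lower at low values, with means of 3.40 in ICC-DMP and 3.61 in ICC-MY against 4.21 in tissue (-0.81 and -0.60, adjusted p = 0.00847 and 0.0283 by limma). Its second probe set turned the direction (0.17 and 0.30, neither passing). It did not pass in ICC-DMP when tunica muscularis replicate 1 was dropped (0.0514), nor in ICC-MY when that array, any ICC-MY array, or ICC-DMP replicate 1 or 2 was (adjusted p = 0.0523 to 0.133). Kcna1 and Kcna2 did not pass on the probe sets used, although Kcna1 did in ICC-MY with the replicate block (-0.64, adjusted p = 0.0285), and other probe sets of each passed. On such a probe set Kcna1 was lower in ICC-DMP and in ICC-MY (-1.31 and -1.90), and ICC-DMP exceeded ICC-MY (0.59, adjusted p = 0.0372). Kcna2 on such a probe set was lower in ICC-MY (-1.64, adjusted p = 0.0215), and ICC-DMP exceeded ICC-MY by 1.53 (adjusted p = 0.0259). The Kcna2 probe set used gave the opposite signs in these comparisons (0.22 and -0.23).

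Kcnab1, the accessory beta subunit that gives Shaker channels fast inactivation, read 3.12, 2.66 and 3.19 in ICC-DMP, 3.37, 3.11 and 3.10 in ICC-MY, and 5.61 and 4.90 in tissue. All ICC arrays lay more than 1.5 units below tissue. The differences were -2.27 (SE 0.25, adjusted p = 0.000705) and -2.06 (SE 0.25, adjusted p = 0.000942) by limma, and the dimmer second probe set did not pass (-0.37 and -0.35). Kcnab2 was close to the threshold in ICC-DMP (-0.54, adjusted p = 0.0515, and 0.0472 with the replicate block).

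Of the 3 Kcnc genes, whose channels allow fast repeated firing in neurons, Kcnc2 was lower. It read 2.44, 2.38 and 2.67 in ICC-DMP, 2.65, 2.61 and 2.63 in ICC-MY, and 4.50 and 4.79 in tissue. The ICC arrays were at the low end of the scale and below both tissue arrays. The differences were -2.15 (SE 0.16, adjusted p = 7.01e-05) and -2.02 (SE 0.16, adjusted p = 8.45e-05) by limma. Kcnc1 and Kcnc4 did not pass (Kcnc4 -0.19 and -0.25).

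The Kcnf, Kcng, Kcns and Kcnv genes encode subunits that form no channel alone and modify other voltage-gated pores. Of the 9 measured, Kcnf1 passed in all 3 comparisons. It read 5.25, 5.44 and 5.32 in ICC-DMP, 3.15, 3.36 and 2.43 in ICC-MY, and 6.11 and 6.92 in tissue. The 3 groups did not overlap, with ICC-MY lowest. It was lower in ICC-MY than in tissue (-3.54, SE 0.32, adjusted p = 0.000174 by limma), with ICC-MY below the array medians. ICC-DMP exceeded ICC-MY by 2.35 (SE 0.28, adjusted p = 0.00116).

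The smaller Kcnf1 difference between ICC-DMP and tissue (-1.18, SE 0.32, adjusted p = 0.0492) did not pass when tunica muscularis replicate 2 (-0.78, 0.232), ICC-MY replicate 2 (0.0506) or any ICC-DMP array (0.151, 0.117 and 0.131) was dropped. A second, dimmer Kcnf1 probe set did not pass in any comparison. Kcng4 was near the threshold between the classes (-0.85, adjusted p = 0.0581, and 0.0104 with the replicate block). Kcng2 differed by at most 0.02.

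Of the 5 Kcne genes, single-pass subunits that change the speed of Kcnq and Kcnh channels, Kcne4 passed. It inhibits several voltage-gated channels. It read 7.58, 7.85 and 7.58 in ICC-DMP, 7.03, 6.97 and 6.53 in ICC-MY, and 7.84 and 8.72 in tissue. ICC-MY lay below the other groups. The difference between ICC-MY and tissue was -1.44 (SE 0.28, adjusted p = 0.00964 by limma). In ICC-DMP it was -0.61 (adjusted p = 0.255), and -1.05 without tunica muscularis replicate 1 (adjusted p = 0.0433). Between the classes it was 0.83 (adjusted p = 0.0893, and 0.0231 with the replicate block). Kcne1l and the other Kcne genes did not pass.

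Of the 15 inward rectifier genes, 2 passed. In ICC-DMP 1 was lower than in tissue and in ICC-MY 2, beside 7.32% and 9.78% of all genes. Kcnj10, the Kir4.1 channel known from glia, read 3.44, 3.62 and 3.73 in ICC-DMP, 3.04, 2.94 and 3.29 in ICC-MY, and 4.37 and 4.38 in tissue. Both classes were below tissue. The differences from tissue were -0.78 (SE 0.16, adjusted p = 0.0188) in ICC-DMP and -1.28 (SE 0.16, adjusted p = 0.00116) in ICC-MY by limma. The ICC-DMP difference did not pass when ICC-DMP replicate 1 (0.0788), ICC-DMP replicate 2 (0.0653) or either tissue array (0.0725 and 0.0701) was dropped. Of 5 glial markers 2 were lower in each class, and their mean level was 5.06 to 5.24 in ICC-DMP, 4.73 to 4.86 in ICC-MY and 6.40 to 6.62 in tissue. Between the classes the Kcnj10 difference was 0.51 (adjusted p = 0.0813, and 0.0438 with the replicate block).

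Kcnj5, a G-protein-gated subunit, was lower in ICC-MY (means 3.24 and 3.92 in tissue, difference -0.68, SE 0.18, adjusted p = 0.036 by limma). It did not pass when any array other than tunica muscularis replicate 2 was dropped (adjusted p = 0.0504 to 0.184), and the second probe set turned the direction (0.53, not passing). The other 13 inward rectifier genes differed by at most 0.47 in any comparison and did not pass on the probe sets used. A dimmer probe set of Kcnj3, a G-protein-gated subunit, passed as lower in ICC-MY (-0.97, adjusted p = 0.00387). Kcnj8 and Abcc9, which encode the pore and sulfonylurea receptor of the vascular ATP-sensitive channel, read 9.17 to 9.40 and 10.10 to 10.58 in ICC-DMP, 8.44 to 10.26 and 9.98 to 11.04 in ICC-MY, and 8.94 to 10.004 and 9.42 to 10.89 in tissue. Neither passed in any comparison. Kcnj8 and Abcc9 themselves belong to the list of 6 pericyte markers used here, so the mean of that list is not independent of them. Of the 6, 2 were higher in each class. Their mean level was 8.61 to 8.86 in ICC-DMP, 8.50 to 9.41 in ICC-MY and 7.73 to 8.58 in tissue. The part of pericytes in the Kcnj8 and Abcc9 levels was not tested. Without the 2 narrow-range arrays Kcnj8 was lower in ICC-DMP than in ICC-MY (-0.84, adjusted p = 0.00739) and than in tissue (-0.70, adjusted p = 0.0401).

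Abcc8, the sulfonylurea receptor of the pancreatic type of this channel, was higher in ICC-MY. It read 4.21, 4.04 and 3.81 in ICC-DMP, 6.46, 6.84 and 7.22 in ICC-MY, and 4.60 and 4.36 in tissue. The ICC-MY arrays lay apart from the others. The difference from tissue was 2.36 (SE 0.24, adjusted p = 0.000331), and that of ICC-DMP from ICC-MY was -2.82 (SE 0.21, adjusted p = 0.000109), by limma. On the second Abcc8 probe set neither passed (1.13 and -0.96, adjusted p = 0.0726 and 0.124). Its usual pore partner Kcnj11 differed by at most 0.05 in any comparison, with values of 5.67 to 6.09.

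Of the 3 non-coding members, Kcnq1ot1 was higher in each ICC class. It is an antisense RNA that lies within the Kcnq1 gene and silences neighbouring imprinted genes, and it encodes no channel. It read 7.54, 7.44 and 7.36 in ICC-DMP, 6.68, 7.10 and 6.95 in ICC-MY, and 4.44 and 5.30 in tissue. All ICC arrays exceeded both tissue arrays by more than 1 unit. The difference was 2.58 (SE 0.25, adjusted p = 0.000355) in ICC-DMP and 2.04 (SE 0.25, adjusted p = 0.00101) in ICC-MY by limma, and 5 of its 6 probe sets passed as higher in each class. Kcnmb4os1 and Kcnmb4os2 did not pass.

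Of 17 measured partner genes of potassium channels, 1 was higher and 4 were lower in ICC-DMP against tissue (median 0.01). Of all genes, 3.72% were higher and 7.32% lower there. In ICC-MY 1 partner gene was higher and 3 were lower (median -0.08), beside 4.05% and 9.78% of all genes. Beside Abcc8, Dpp6 and Dpp10, the partner genes that passed were Sgk1, Akap5, Cntnap2 and Ank3. Sgk1, a kinase that raises the surface level of several channels, read 10.75, 10.65 and 10.41 in ICC-DMP, 7.66, 8.17 and 7.23 in ICC-MY, and 7.06 and 8.48 in tissue. ICC-DMP lay apart from the rest, with differences of 2.83 from tissue and 2.91 from ICC-MY (adjusted p = 0.00292 and 0.00157 by limma). Akap5, a scaffold that brings kinases to M-channels, was lower in ICC-DMP and in ICC-MY (-1.81 and -1.19, adjusted p = 0.000654 and 0.00474), and with the replicate block also in ICC-DMP against ICC-MY (-0.61, adjusted p = 0.0419). Ank3, which anchors Kcnq channels in neurons, lay below tissue in ICC-MY (-1.76, adjusted p = 0.00475), and ICC-DMP exceeded ICC-MY by 1.56 (adjusted p = 0.00721). Cntnap2, which clusters Shaker channels on axons, was lower in ICC-DMP than in tissue (-2.65, adjusted p = 0.0079, but 0.0517 without tunica muscularis replicate 1). It was also lower in ICC-DMP than in ICC-MY (-1.69, adjusted p = 0.0433), which did not pass when any array except ICC-DMP replicate 1 and ICC-MY replicate 3 was dropped (0.0555 to 0.158). In ICC-MY against tissue Cntnap2 passed only with some settings, among them the replicate block (-0.65, adjusted p = 0.0451).

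Of 10 measured sodium-potassium pump genes, which restore the potassium gradient, 2 were lower in each class and 0 were higher in limma. Of all genes, 7.32% were lower in ICC-DMP and 9.78% in ICC-MY. At an unadjusted p under 0.05 in limma, 4 pump genes were lower in each class, 0 higher in ICC-DMP and 1 higher in ICC-MY. The 2 that passed as lower were Fxyd6 (-2.27 and -1.85) and Fxyd3 (-2.16 and -2.03), small regulators of the pump. Of 7 cyclic-nucleotide-gated relatives, among them Hcn2 and Hcn3, 0 passed in any comparison in limma, also at an unadjusted p under 0.05. Of 6 genes for opposing inward currents and calcium sources, Ano1 and Cacna1d were higher in each class, and Cacna1h and Slc12a2 were higher and Ryr2 lower in ICC-MY. By limma, ICC-DMP lay below ICC-MY for Cacna1h (-3.33, adjusted p = 0.000469), Slc12a2 (-2.44, 0.0136) and Cacna1c (-0.82, 0.0426). For Ryr2 it lay above ICC-MY (2.40, 0.000693). Ano1 did not pass in ICC-DMP when any ICC-DMP array or tunica muscularis replicate 1 was dropped (adjusted p = 0.0822 to 0.171), nor in ICC-MY when any ICC-DMP array, ICC-MY replicate 2 or 3, or tunica muscularis replicate 1 was (0.0512 to 0.155). In ICC-MY against tissue Slc12a2 did not pass when ICC-DMP replicate 1 or 2 or ICC-MY replicate 2 or 3 was dropped (0.0521 to 0.0778). Without tunica muscularis replicate 1 that difference was 1.42. Between the classes Slc12a2 did not pass when ICC-DMP replicate 1 (0.0645) or 3 (0.0584) or ICC-MY replicate 3 (0.0533) was dropped. Nor did Cacna1c when any ICC-DMP array (0.145, 0.168 and 0.0927) or ICC-MY replicate 2 (0.119) or 3 (0.137) was. With the replicate block Cacna1h (-1.07, adjusted p = 0.0106) and Cacna1c (-0.72, adjusted p = 0.0466) were also lower in ICC-DMP than in tissue. On the second probe set Cacna1d did not pass (0.33 and 0.43). There Ryr2 turned direction in ICC-MY against tissue (0.20, adjusted p = 0.625) and between the classes (-0.20, adjusted p = 0.643). Cacna1c did not pass between the classes on its second probe set (-0.76, adjusted p = 0.0675).

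The 60 genes that did not pass in any comparison had differences between -0.85 and 0.78, and the lowest adjusted p among them was 0.0505. Of the 84 genes, 47 read above the array median on at least 2 arrays, and of the 24 that passed, 21 did. Several probe sets named 46 of the 84 genes. Among genes that passed and had several, the same direction was called on another probe set for 4 of 11 in ICC-DMP, 6 of 14 in ICC-MY and 1 of 6 between the classes, and the opposite direction for 0. Some other Kcn genes were not analysed here.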

How the data were processed

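RNA of 8 samples (about 50 ng each, per the labels' protocols) was amplified in 2 rounds, labelled with biotin and hybridised. The authors deposited 1 value on the log2 scale for each probe set on each array. Per the submitters' processing notes RMA and limma were used, with no version or role given, and the sources used here do not say whether the arrays were normalized together. Of 45101 probe sets, 64 controls were left out, 34945 named 1 gene, 932 named several and 9160 were unnamed. The Entrez identifiers of 34741 probe sets matched the RefSeq gene table (GRCm38.p6), which changed 0 symbols. No detection calls came with the values, so a low value is a level near background and no fold bound was computed; the number of arrays limits the precision.

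Groups came from the sample titles. The 3 groups were fitted together by lmFit and eBayes of limma 3.58.1 under R 4.3.3 (residual df 5, prior df 3.17). P-values were 2-sided, and the Benjamini-Hochberg adjustment ran over 18193 genes. Every p is adjusted unless called unadjusted, and probe set results come from the same fit over 34945 probe sets. The fit was tested on simulated data. The noise there was independent between arrays, so the shared deviations of same-numbered arrays, given below, were not tested. The titles say biological replicates and do not name animals, so p-values measure the spread between samples. The genes described are all members past the threshold, the highest others until a subfamily had 2, and list members past it; genes outside this rule, named for another probe set or setting, were chosen after their values were seen. Members and lists were chosen with earlier results of these data known.

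Same-numbered arrays deviated together from their group means in each of 7 pairs (r 0.155 to 0.608, and 0.289, 0.5 and 0.387 between the ICC classes). With 2 tissue arrays the deviations mirror each other, so the pairs with tissue are not separate evidence. The 2 narrow-range arrays are both number 1, and their part in this was not tested. Such a pairing comes from the data and not from the labels. The fit with the replicate block is given where it changes a call. Alternatives were that block, quantile normalization, median centring, removal of dim genes, averaged probe sets, array weights, fitting 2 groups, leaving out the narrow-range arrays, each array left out in turn and, added after seeing the data, the second probe set.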

Additional observations from a re-analysis of the deposited data

Results flagged for a closer look

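The effects of the 2 ICC classes against the same tissue arrays differed, by the direct test between the classes in limma, for 8 potassium channel genes. The log2 difference of ICC-DMP from ICC-MY was 4.30 for Kcnq5, 2.35 for Kcnf1, 2.17 for Kcnmb4, 1.54 for Kcnip2, 1.24 for Kcnt2 and 1.15 for Kcnmb1. It was -4.33 for Kcnk3 and -1.28 for Kcnmb2. The adjusted p of these 8 genes ran from 3.3e-05 to 0.0166. No group held enough arrays for a test of single outlying samples.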

How the results depend on the processing

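For the named potassium channel genes, 45 differences passed and 29 of them passed under all 16 other settings that gave a value, with 0 reversed. Among these 16 settings, the most calls were lost without tunica muscularis replicate 1 (9 of 45), 0 were lost under the replicate block, under quantile normalization or with dim genes removed (41 with a value), and with arrays centred on their medians 1 was lost (Kcnf1 in ICC-DMP, adjusted p = 0.0533). Leaving out 1 array gave 3 to 5 genes higher and 9 to 12 lower in ICC-DMP against tissue, 3 to 5 higher and 13 to 17 lower in ICC-MY against tissue, and 5 to 7 higher and 2 to 3 lower in ICC-DMP against ICC-MY. The count of 3 higher in ICC-DMP was that without ICC-DMP replicate 2. Between the classes, the 6 genes higher in ICC-DMP became 11 with the replicate block, and the 2 lower became 5 with the block, 5 with quantile normalization, 5 with averaged probe sets, 5 with array weights, 5 without the 2 narrow-range arrays and 4 with dim genes removed. The block ended no call of a channel gene, and the calls it added are given with each gene. Over all genes, 2009 passed in ICC-DMP against tissue (1264 without ICC-DMP replicate 1, 3129 with quantile normalization). In ICC-MY against tissue 2516 passed (1520 with only those 2 groups fitted, 3911 with quantile normalization). Between the classes 1577 passed (991 without ICC-DMP replicate 1, 2617 with the replicate block, 2646 with array weights). Kcnq5 in ICC-MY against tissue reversed with averaged probe sets (-0.63, adjusted p = 0.0492).

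With the second probe set in place of the brightest, chosen after seeing the data, 20 of the 45 calls were lost. A gene with a single probe set kept it, so this setting could not test its calls. Genes with several held 11 of the 17 calls in ICC-DMP, 14 of the 20 in ICC-MY and 6 of the 8 between the classes. All the lost calls were theirs. The 12 genes lower in ICC-DMP than in tissue became 7, and the 2 lower in ICC-DMP than in ICC-MY became 1. These new counts include genes gained under this setting. The 7 include Kcna1 (-1.31, adjusted p = 0.000751 by limma) and Kcnu1 (-0.503, 0.0429). Between the classes the 1 was Kcnab3 (-0.688, 0.026), while Kcnk3 (-0.58, 0.053) and Kcnmb2 (-1.02, 0.111) were both lost. Among results that passed with either probe set, the reversed values were 0.17 and 0.30 for Kcna6 in ICC-DMP and ICC-MY, 0.014 for Kcnd3 in ICC-DMP, -0.051 for Kcnip2 between the classes, 0.53 for Kcnj5 in ICC-MY, -2.13 for Kcnq5 in ICC-MY, and 0.20 and -0.20 for Ryr2 in ICC-MY and between the classes. Of these, the Kcnq5 value passed. Kcna2, a gene outside the rule for described genes, also reversed and passed with the second probe set. Its difference went from 0.22 to -1.64 in ICC-MY against tissue (adjusted p = 0.0217 by limma). Between the classes it went from -0.23 to 1.53 (0.0272). Differences that passed with neither probe set also changed sign, among them Kcnk3 and Kcnj5 in ICC-DMP and Kcnip4 and Kcnc4 in ICC-MY. The causes were not tested. A second probe set is dimmer by construction, and with no detection calls its signal over background is unknown.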
